A study of Mus musculus with 16 samples.

Results

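Vessels were followed through 9 endothelial genes, 6 of blood vessels (Pecam1, Cdh5, Kdr, Flt1, Tek and Vwf) and 3 of lymphatic vessels (Lyve1, Prox1 and Flt4). The genes were listed by name and matched by symbol to the table of gene counts, and all 9 were found among its 53465 genes. All 9 passed the filter on low counts and were tested with 18251 genes in all. The tumors were MC38, a mouse colorectal carcinoma line, grown from injected cells under the skin of the right flank of female C57BL/6 mice aged 6 to 8 weeks. Mice whose tumor measured 150 to 250 mm3 on day 16 were randomised to control IgG or to an antibody against PD-1 (aPD-1), 200 µg on days 16 and 20, and all tumors were collected on day 21. RNA came from 2 sections of 100 µm of the frozen part of each tumor, as bulk poly(A) RNA-seq. There were 8 IgG tumors (numbers 1 to 8), 6 aPD-1 non-responder tumors (aPD-1 NR, 9 to 14) and 2 aPD-1 responder tumors (aPD-1 R, 15 and 16), each from another mouse. Response had been assigned in the study by CD8 T cell staining of the other part of the tumor, so the responder group was defined by T cell content and holds 2 animals of 1 cell line.

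Blood endothelium answers to the VEGF family through the receptors Flt1 (VEGFR1) and Kdr (VEGFR2), and lymphatic endothelium to Vegfc and Vegfd through Flt4 (VEGFR3). Kdr carries most of the growth signal, Flt1 binds Vegfa tightly and acts in part as a decoy, and Tek (Tie2) is the receptor of the angiopoietins, which set vessel stability. Prox1 is the transcription factor that gives and keeps lymphatic identity. In tumors, new blood vessels are typically leaky and poorly covered by pericytes, and lymphatic vessels are a route by which immune cells leave.

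Sequencing depth lay between 26603449 and 39948866 counts per tumor, and levels are given as CPM, counts per 1000000 on library sizes scaled by TMM. Mitochondrially encoded genes took 7.60% of counts in IgG tumor 1, 6.00% in NR tumor 9 and 5.74% in NR tumor 14, against 2.52% to 3.25% in the other tumors. Of the markers of colon epithelium, Cdx2 was at a median of 0 CPM, Vil1 at 0.138 CPM and Epcam at 0.502 CPM over the 16 tumors, while Cdh1 lay between 3.75 and 9.79 CPM. The keratins Krt20, Krt8 and Krt18 had medians of 0.173, 0.338 and 0.296 CPM. The highest values were 10.6 CPM for Epcam, 0.710 CPM for Krt20, 31.9 CPM for Krt8 and 33.3 CPM for Krt18. In bulk tissue, fewer cells of a type and less RNA per cell cannot be told apart. Genes of B cells and of fat cells stood apart in both responders. The summed level of 8 B cell genes was 1407 CPM in tumor 15 and 363 CPM in tumor 16, against 1.94 to 9.20 CPM in the IgG and 2.64 to 7.72 CPM in the NR tumors, and that of 5 fat cell genes was 1597 and 275 CPM, against 1.01 to 88.2 and 3.01 to 58.3 CPM. Skeletal muscle genes stood apart in an IgG tumor. Their sum was 1670 CPM in IgG tumor 6, against 2.57 to 62.6 CPM in the NR tumors and 2.22 and 10.8 CPM in the responders. The part of these tissues in any of the results was not tested.

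The genes lie on 7 chromosomes of GRCm38, all annotated as protein coding. Pecam1 (ENSMUSG00000020717) spans 106654217 to 106750628 on chromosome 11 and Flt4 (ENSMUSG00000020357) spans 49609263 to 49652739 on the same chromosome. Kdr (ENSMUSG00000062960) spans 75932827 to 75978458 and Flt1 (ENSMUSG00000029648) spans 147561604 to 147726011, both on chromosome 5. Cdh5 (ENSMUSG00000031871) spans 104101625 to 104144511 on chromosome 8, and Tek (ENSMUSG00000006386) spans 94739289 to 94874976 on chromosome 4. Vwf (ENSMUSG00000001930) spans 125546774 to 125686679 on chromosome 6, Lyve1 (ENSMUSG00000030787) spans 110850607 to 110863239 on chromosome 7, and Prox1 (ENSMUSG00000010175) spans 190118035 to 190170714 on chromosome 1.

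The sequences just before the start of 4 of these genes are shown because the genes differed in the responders: Kdr, Tek and Prox1 rose over the non-responders, and Flt1 gave the smallest difference of the 9. Each run is the 250 bases before a RefSeq start (GRCm38.p6), 5′ to 3′ on the strand of the gene. The windows are chr5:75978456-75978705 on the minus strand for Kdr, chr5:147726012-147726261 on the minus strand for Flt1, chr4:94739039-94739288 on the plus strand for Tek and chr1:190170828-190171077 on the minus strand for Prox1, the more upstream of 2 RefSeq starts. RefSeq windows matched 5 of the 9 genes, the fifth being Flt4. Capitals mark GGAA on either strand, which reads TTCC where it lies on the opposite one. GGAA is the core of the sites bound by ETS transcription factors, a family that acts at many endothelial genes.
Kdr: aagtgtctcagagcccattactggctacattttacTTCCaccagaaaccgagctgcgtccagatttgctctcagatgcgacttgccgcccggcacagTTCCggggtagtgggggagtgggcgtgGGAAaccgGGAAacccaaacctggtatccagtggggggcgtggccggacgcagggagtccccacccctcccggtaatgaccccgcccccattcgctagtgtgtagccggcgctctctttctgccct
Flt1: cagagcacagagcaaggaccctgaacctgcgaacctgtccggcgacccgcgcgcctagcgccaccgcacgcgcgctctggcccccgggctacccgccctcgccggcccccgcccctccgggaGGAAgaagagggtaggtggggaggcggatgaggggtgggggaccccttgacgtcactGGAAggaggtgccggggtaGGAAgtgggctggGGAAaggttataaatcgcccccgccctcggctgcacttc
Tek: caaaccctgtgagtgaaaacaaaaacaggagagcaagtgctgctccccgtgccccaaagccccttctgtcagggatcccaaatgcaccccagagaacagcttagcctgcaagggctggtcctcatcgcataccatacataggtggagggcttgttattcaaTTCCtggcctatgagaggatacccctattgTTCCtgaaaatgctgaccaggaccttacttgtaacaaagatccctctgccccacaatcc
Prox1: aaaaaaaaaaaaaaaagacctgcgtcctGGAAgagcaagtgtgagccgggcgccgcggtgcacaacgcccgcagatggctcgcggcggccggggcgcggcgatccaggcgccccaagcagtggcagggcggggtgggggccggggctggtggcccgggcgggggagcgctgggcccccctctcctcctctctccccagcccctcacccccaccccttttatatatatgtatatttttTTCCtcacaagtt
The Kdr window held 4 copies, with 2 in each direction, and the Flt1 window held 4, with every copy in the direction of the gene. Tek and Prox1 held 2 each, and the window of the second Prox1 start, chr1:190169516-190169765, held 5. At least 1 copy stood in 93.4% of 32851 mouse windows of this length, at least 2 in 76.8%, at least 4 in 33.4% and at least 5 in 18.0%, and Kdr, which rose, and Flt1 held the same number. These counts describe the letters in these windows only. GC content was 61.6% for Kdr, 70.4% for Flt1, 51.2% for Tek and 64.8% for Prox1, with a median of 52.4% over all windows.

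To compare genes with each other, CPM was divided by the length of all exons of a gene in kilobases. In the IgG tumors, Pecam1, an adhesion protein of endothelial junctions that platelets and leukocytes also carry, had the highest level, at 7.58 ± 2.91 CPM per kb (SD, n = 8). Cdh5, the cadherin of endothelial junctions, followed at 4.53 ± 2.01 and was lower than Pecam1 in 8 of 8 tumors. Lyve1 (1.92 ± 1.83), a hyaluronan receptor of lymphatic endothelium and of some macrophages, Flt1 (1.76 ± 0.593) and Kdr (1.73 ± 0.724) came next and could not be put in order. By an exact sign-flip test over the 8 tumors, two-sided and adjusted over 8 neighbouring pairs, Lyve1 and Flt1 gave an adjusted p of 0.562 and Flt1 and Kdr 0.961. Tek (0.734 ± 0.565) and Vwf (0.631 ± 0.190), the clotting factor carrier stored in endothelium and platelets, were likewise not separated (exact test, adjusted p = 0.786). Flt4 lay lower, at 0.303 ± 0.139, and Prox1 was near the floor, at 0.0131 ± 0.0132 CPM per kb. The other 5 steps of this order held in 8 of 8 tumors, each with an adjusted p of 0.0125 by the same exact test. That test measures only how far the tumors shared a direction, since each gene had 1 fixed length in all of them. The order itself depends on the lengths chosen, among them 13504 bases for Flt1, 16064 for Vwf and 9030 for Kdr.

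In the NR tumors the order was the same but for Vwf (0.719 ± 0.433, SD, n = 6), which stood above Tek (0.533 ± 0.288). With 6 tumors no step passed, the smallest adjusted p being 0.0625. Both responders had Lyve1 above Cdh5, the reverse of all 14 other tumors. Their mean levels were 23.9 CPM per kb for Pecam1, 15.4 for Lyve1, 8.87 for Cdh5, 3.72 for Kdr, 3.55 for Tek, 2.04 for Flt1, 1.60 for Vwf, 0.551 for Flt4 and 0.451 for Prox1.

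The comparison of responders with non-responders asks how tumors that received the same antibody differed by T cell infiltration. All 9 vessel genes had a log2 fold change above 0 in the responders, as did 51.7% of all genes tested, and 4 of them, Pecam1, Kdr, Tek and Prox1, passed an adjusted p of 0.05 (edgeR quasi-likelihood test, Benjamini-Hochberg over all genes tested). None passed in the lower direction. Over all genes tested, 15.4% passed as higher and 4.34% as lower in this comparison, so a rise was itself common. Each of the 4 also had a log2 fold change above 1, as did 12.5% of all genes tested. The median log2 fold change was 1.29 over the 6 blood genes and 2.85 over the 3 lymphatic genes, beside 0.02 over all genes tested. With 3 genes the lymphatic median is the value of Lyve1, which did not pass. Flt4 was at 0.86 and Prox1 at 4.29. For 5 of the 9, namely Pecam1, Kdr, Tek, Lyve1 and Prox1, the lower of the 2 responders still exceeded the highest of the 6 non-responders, which held for 21.5% of all genes tested. Leaving out responder 15 left 0 of the 9 past the threshold, and over all genes the share that passed in either direction went from 19.7% to 5.42%. The median log2 fold changes were then 0.75 for the blood and 1.71 for the lymphatic genes. In the fits without each tumor in turn, every member had its lowest estimate without tumor 15. Without tumor 16 instead, Pecam1 was at 1.91, Cdh5 at 1.23, Kdr at 1.81, Flt1 at 0.35 and Tek at 3.36, the highest estimate of each. The other members had their highest without an NR tumor.

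**Figure D1:**
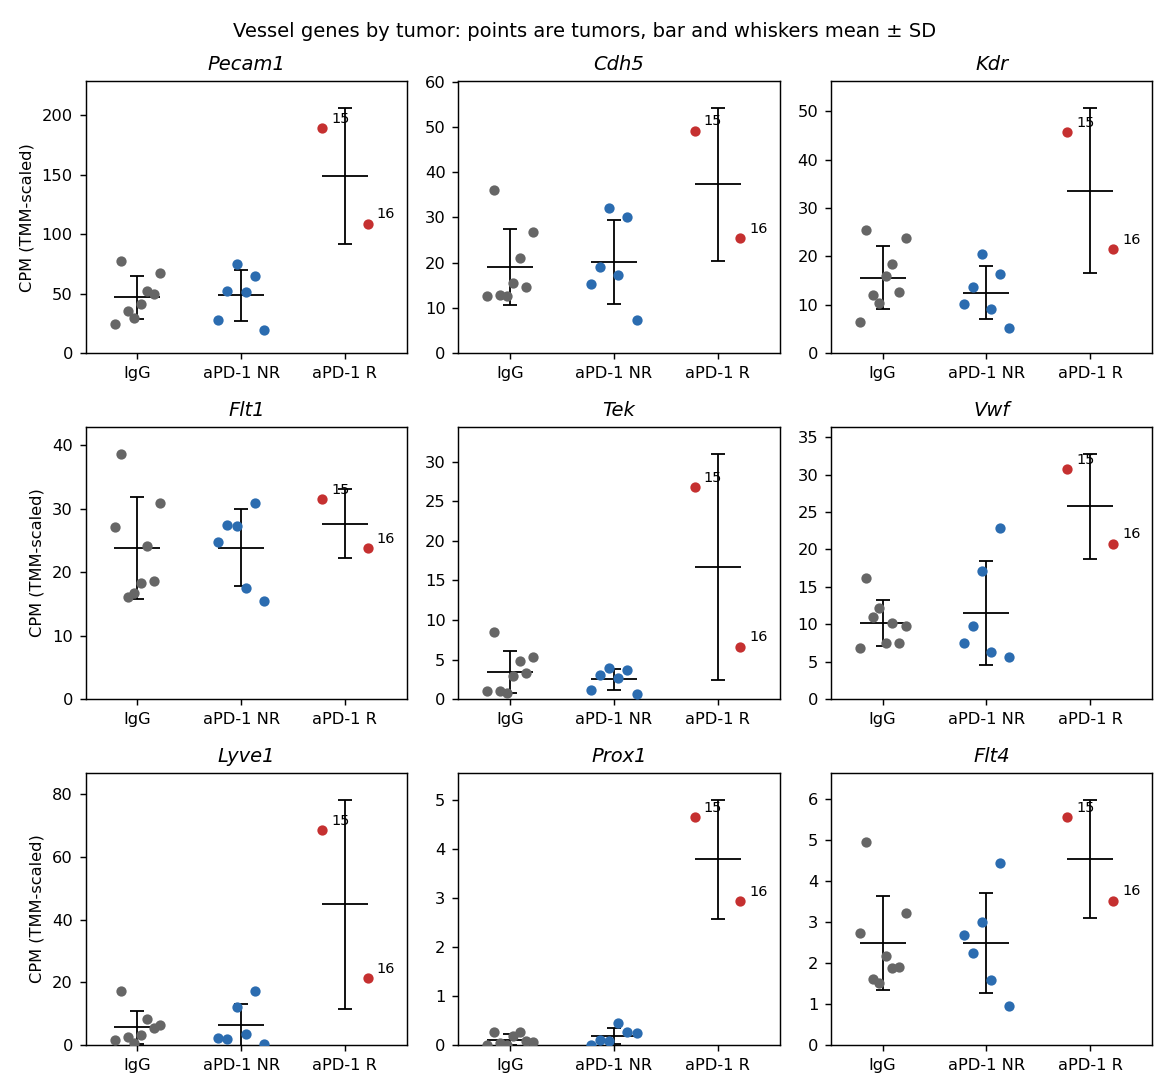
TMM-scaled CPM (y axis, linear, from 0) of each of the 9 vessel genes in the 8 IgG, 6 aPD-1 NR and 2 aPD-1 R tumors. Points are tumors, the bar and whiskers give the mean ± SD, and the 2 responders carry their tumor number; tumor 15 lies above tumor 16 in every panel, and in the Flt1 panel the 3 groups overlap.

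Among the genes of endothelial junctions, Pecam1 read 24.97 to 77.3 CPM in the IgG tumors (median 45.2) and 19.4 to 75.3 CPM in the NR tumors (median 52.0). The responders had 189.1 CPM in tumor 15 and 108.7 CPM in tumor 16. Both lay above all other tumors, and the IgG and NR ranges covered each other almost wholly. Responders exceeded non-responders by a log2 fold change of 1.62 ± 0.42 (SE, adjusted p = 0.0114), a 3.07-fold ratio of means, and without tumor 15 by 1.09 (adjusted p = 0.349). Cdh5 read 12.6 to 36.0 CPM in the IgG tumors (median 15.2), 7.42 to 32.2 CPM in the NR tumors (median 18.1) and 49.2 and 25.4 CPM in the responders. Tumor 15 was the highest of all 16, whereas tumor 16 fell below 2 of the NR tumors. Its log2 fold change over the non-responders was 0.88 ± 0.46 (SE) with an adjusted p of 0.201, and the groups overlapped. Without tumor 15 it was 0.26 (adjusted p = 0.902). Platelets also carry Pecam1 and Vwf. Platelet genes summed to 27.5 and 26.4 CPM in the responders, 18.4 to 25.1 CPM in the NR and 10.2 to 24.1 CPM in the IgG tumors. Over the non-responders, 1 of the 5 tested passed (Itga2b, log2 fold change 1.82, edgeR adjusted p = 0.00287). The log2 fold change was above 0 for 4 of the 5, and Gp1bb was at -2.30 (edgeR adjusted p = 0.122). The part of platelets in the Pecam1 and Vwf values was not tested.

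Of the 3 VEGF receptors, Kdr passed and Flt1 and Flt4 did not. Kdr read 6.54 to 25.4 CPM in the IgG tumors (median 14.3), 5.25 to 20.5 CPM in the NR tumors (median 11.96) and 45.6 and 21.5 CPM in the responders. Tumor 15 stood clear of every other tumor, and tumor 16 lay just above the highest NR tumor but inside the IgG range. Kdr was 1.42 ± 0.45 (SE) higher than in the non-responders on the log2 scale, with an adjusted p of 0.0335. Without any 1 of tumors 9, 10, 12, 14 or 15 it no longer passed, and without tumor 15 its log2 fold change was 0.71. Flt1 read 16.0 to 38.6 CPM in the IgG tumors (median 21.4), 15.5 to 30.8 CPM in the NR tumors (median 25.9) and 31.5 and 23.8 CPM in the responders. The highest value of the 16 was that of IgG tumor 2, and all 3 groups overlapped. Its log2 fold change was 0.21 ± 0.32 (SE, adjusted p = 0.718), and without tumor 15 it was -0.08. Within each tumor, the log2 ratio of Kdr to Flt1 was on average 1.21 higher in the responders than in the non-responders, a measure chosen after the values were seen and given without a test.

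Flt4, the receptor of Vegfc on lymphatic endothelium, read 1.499 to 4.95 CPM in the IgG tumors (median 2.05), 0.948 to 4.45 CPM in the NR tumors (median 2.47) and 5.56 and 3.52 CPM in the responders. Only tumor 15 exceeded all the others, and tumor 16 was below NR tumor 13 and IgG tumor 2. The log2 fold change over the non-responders was 0.86 ± 0.47 (SE, adjusted p = 0.233), and 0.43 without tumor 15 (adjusted p = 0.835). The ratio of Flt4 to Flt1 was 0.73 higher in the responders on the log2 scale, again without a test.

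Tek, the angiopoietin receptor, read 0.750 to 8.45 CPM in the IgG tumors (median 3.15), 0.644 to 3.95 CPM in the NR tumors (median 2.81) and 26.8 and 6.64 CPM in the responders. Both responders were above all NR tumors, although IgG tumor 2 exceeded tumor 16. The 2 responders differed 4.04-fold from each other, the widest gap among the 9 genes. Tek gained 2.73 ± 0.74 (SE) on the log2 scale over the non-responders, with an adjusted p of 0.0146. Without tumor 15 that gain was 1.33 and the adjusted p 0.569. Vwf read 6.84 to 16.1 CPM in the IgG tumors (median 9.999), 5.69 to 22.9 CPM in the NR tumors (median 8.63) and 30.7 and 20.8 CPM in the responders. NR tumor 13 lay above tumor 16, so these groups overlapped. The log2 fold change was 1.16 ± 0.43 (SE) with an adjusted p of 0.0684, and it passed when NR tumor 11 or 13 was left out. Vwf also passed under DESeq2 and with the mitochondrial share as a covariate. Without tumor 15 its log2 fold change was 0.78.

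Of the lymphatic genes, Prox1 was hardly detected outside the responders. It had 0 to 10 counts in the IgG tumors and 0 to 18 in the NR tumors, with 0 counts in IgG tumors 1 and 4 and NR tumor 9, against 157 and 104 counts in tumors 15 and 16. In CPM these were 0 to 0.273 (median 0.0699), 0 to 0.456 (median 0.164), and 4.64 and 2.93. A count of 0 allows up to 3 counts in a tumor by counting error. No other tumor came near the responders, whose mean was 20.1-fold that of the non-responders. The fitted log2 fold change was 4.29 ± 0.86 (SE, adjusted p = 0.00177), and without tumor 15 it was 3.85 with an adjusted p of 0.0513.

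Lyve1 read 0.480 to 17.1 CPM in the IgG tumors (median 4.32), 0.440 to 17.2 CPM in the NR tumors (median 2.86) and 68.5 and 21.3 CPM in the responders. Both responders were the highest of the 16 tumors, but the other tumors themselves spread widely, with a coefficient of variation of 95.1% in the IgG and 109.7% in the NR group. At 2.85 ± 1.01 (SE) on the log2 scale the difference was large and did not pass (adjusted p = 0.0605), and it passed when tumor 2, 4 or 13 was left out. Without tumor 15 it was 1.71 (adjusted p = 0.610). Macrophages can also carry Lyve1, and 2 of 8 macrophage genes passed over the non-responders, Mrc1 by 1.65 (adjusted p = 0.0288) and Timd4 by 5.64 (adjusted p = 4.68e-06) on the log2 scale. Of the 8, 7 had a log2 fold change above 0, with Cd163 at 3.09 (adjusted p = 0.0576) and Folr2 at 2.30 (adjusted p = 0.0691). Over the IgG tumors 5 of the 8 passed as higher, beside 17.7% of all genes tested. The 8 macrophage genes summed to 1071 and 863 CPM in the responders, 521 to 846 CPM in the NR and 497 to 723 CPM in the IgG tumors. The part of macrophages in the Lyve1 values was not tested.

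A single-gene check used exact permutation of log2 CPM over the 2 and 6 tumors, two-sided, for which 0.0357 is the smallest p that 28 splits can give. Kdr, Tek and Prox1 reached that value. Pecam1 and Lyve1 gave 0.0714, Vwf 0.107, Flt4 0.143, Cdh5 0.214 and Flt1 0.571.

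The comparison of responders with IgG tumors uses the same 2 responders. Here 5 of the 9 passed, all as higher: Pecam1, Tek, Vwf, Lyve1 and Prox1. Of all genes tested, 17.7% passed as higher and 5.17% as lower. Each of the 5 also had a log2 fold change above 1, as did 14.3% of all genes tested, and all 9 were above 0, as were 48.4%. Prox1 was 5.00 ± 0.81 (SE) higher on the log2 scale (edgeR adjusted p = 1.92e-04), a 34.3-fold ratio of means, and it is the only one of the 9 that passed without tumor 15. Lyve1 was 2.99 ± 0.94 higher (adjusted p = 0.0295), a call lost without IgG tumor 1 or 5 or responder 15. Tek gained 2.27 ± 0.70 (adjusted p = 0.0257), Pecam1 1.66 ± 0.40 (adjusted p = 0.00545) and Vwf 1.34 ± 0.40 (adjusted p = 0.0222). Kdr (1.10 ± 0.43, adjusted p = 0.0803), Cdh5 (0.97 ± 0.43, adjusted p = 0.127), Flt4 (0.86 ± 0.45, adjusted p = 0.201) and Flt1 (0.21 ± 0.30, adjusted p = 0.683) did not pass. Kdr and Cdh5 passed once IgG tumor 2 was left out, in which Kdr was the highest of the IgG group at 25.4 CPM. For Pecam1, Vwf, Lyve1 and Prox1 both responders lay above all 8 IgG tumors, which was so for 19.3% of all genes tested, and exact permutation gave 0.0222 for Pecam1, Vwf and Prox1, the smallest p that 2 against 8 tumors can give. By the same test Lyve1 gave 0.0444, Cdh5 and Flt4 0.0667, Tek 0.0889, Kdr 0.111 and Flt1 0.467. Without tumor 15 the log2 fold changes of the genes that passed were 4.57 for Prox1, 1.85 for Lyve1, 1.13 for Pecam1, 0.96 for Vwf and 0.86 for Tek. The estimates of Cdh5, Kdr and Flt4 were then 0.34, 0.39 and 0.42, and that of Flt1 was -0.08.

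**Figure D2:**
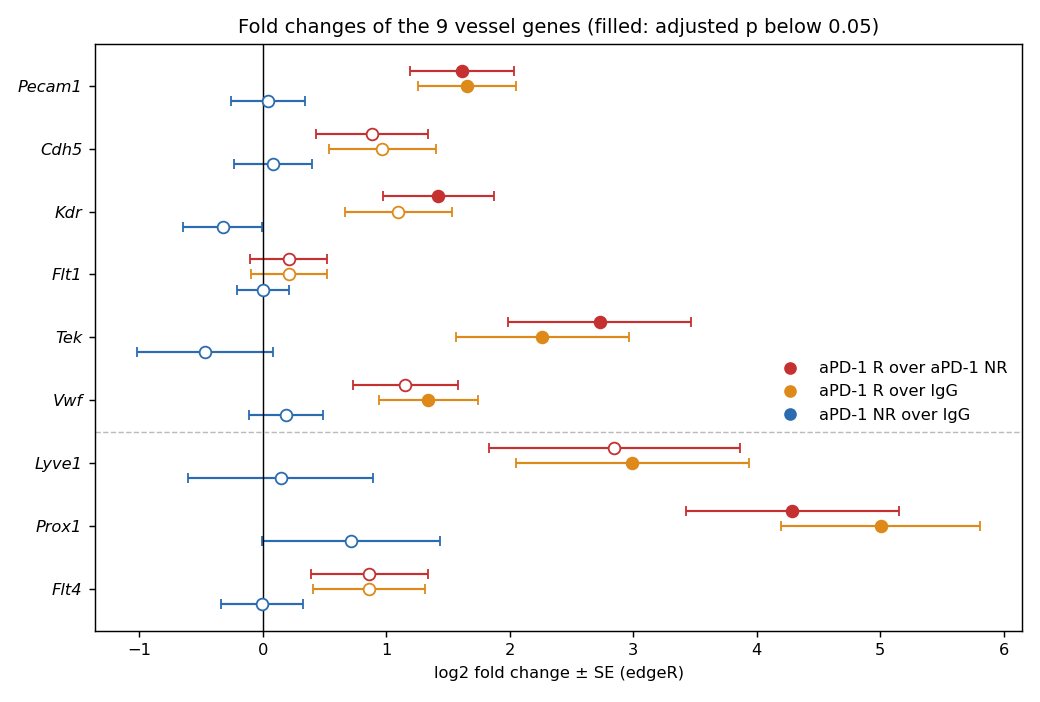
Log2 fold change ± SE from edgeR (x axis) of each vessel gene (y axis, blood genes above the dashed line and lymphatic genes below) in 3 comparisons. Filled points passed an adjusted p of 0.05; the comparisons of responders lie to the right of 0 for all 9 genes, and those of non-responders with IgG tumors, between -0.46 and 0.72, are all open.

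Non-responders, treated tumors chosen for CD8 T cell levels like those of the controls, were also set against IgG tumors. None of the 9 genes passed by edgeR or by DESeq2, and 0 of the 9 had an unadjusted p below 0.05. The share of all genes tested that passed in edgeR was 0% in either direction, and 3.8% had an unadjusted p below 0.05. Estimates ran from -0.46 ± 0.55 for Tek to 0.72 ± 0.72 (SE) for Prox1. The estimates of Flt1 (0.003 ± 0.211), Flt4 (-0.005 ± 0.329), Pecam1 (0.04 ± 0.30) and Cdh5 (0.08 ± 0.32) were close to 0, with the standard errors showing what 6 and 8 tumors could resolve. Kdr was at -0.32 ± 0.32, Vwf at 0.19 ± 0.30 and Lyve1 at 0.15 ± 0.75. In the randomised comparison of all 8 aPD-1 tumors with the 8 IgG tumors, 0 of 9 passed as well, by edgeR and by DESeq2. Of all genes tested, 13.5% had an unadjusted p below 0.05 there and 0% passed in edgeR, while DESeq2 passed 127. Prox1 was the 1 member with an unadjusted p below 0.05 (log2 fold change 3.22 ± 1.05, adjusted p = 0.193, exact permutation p = 0.0848), and without tumor 15 its estimate was 2.27.

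Most of the 9 genes also varied together among tumors without a response. Over the 14 IgG and NR tumors, Pearson correlations of log2 CPM were above 0 for all 36 pairs, and 26 pairs passed an adjusted p of 0.05 (100000 permutations, Benjamini-Hochberg over the 36), or 25 by Spearman's rho. The 26 pairs had r of at least 0.616, a level reached by 10.4% of the 166540375 pairs of all genes tested in the same tumors, and the median r was 0.66 over the 36 pairs and 0 over all pairs. Pecam1 went with Cdh5 (r = 0.93, rho = 0.96), with Tek (r = 0.93, rho = 0.92), with Kdr (r = 0.89, rho = 0.90) and with Lyve1 (r = 0.88, rho = 0.85). For Pecam1 with Cdh5 and with Tek, the adjusted permutation p of r was 1.20e-04, reached at the smallest raw p that the permutations can give, 1e-05, and that of rho was 1.20e-04 and 1.44e-04. For Kdr and Lyve1 with Pecam1, the adjusted permutation p of r was 2.52e-04 and 2.16e-04, and that of rho 4.05e-04 and 0.00112. Without the 2 tumors farthest from the Pecam1 median, 1 and 14, r with Pecam1 was 0.90 for Cdh5, 0.90 for Tek, 0.77 for Kdr and 0.83 for Lyve1. Within the 8 IgG tumors it was 0.92 for Cdh5, 0.94 for Tek and 0.95 for Kdr (exact permutation, adjusted p = 0.00491 for each) and 0.89 for Lyve1 (exact permutation, adjusted p = 0.0143).

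Flt1 had its closest member in Flt4 (r = 0.91, rho = 0.94, adjusted permutation p = 1.20e-04 for each), and r remained at 0.87 without tumors 2 and 14 and 0.93 within the IgG tumors. With Pecam1 its r was 0.62 (rho = 0.74, adjusted permutation p = 0.0299 and 0.00915) and with Kdr 0.62 (rho = 0.70, adjusted permutation p = 0.0283 and 0.0146), while within the 8 IgG tumors these were 0.60 and 0.49 with exact adjusted p of 0.178 and 0.279. Whether Flt1 was less tied to Pecam1 than Cdh5 was, was not tested. Prox1, at 18 counts or fewer in these tumors, had r between 0.01 with Flt4 and 0.52 with Tek, and none of its 8 pairs passed over the 14 tumors. Within the 8 IgG tumors, at 10 counts or fewer, its r was 0.85 with Tek and 0.84 with Lyve1 (exact permutation, adjusted p = 0.0337 and 0.0270).

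**Figure D3:**
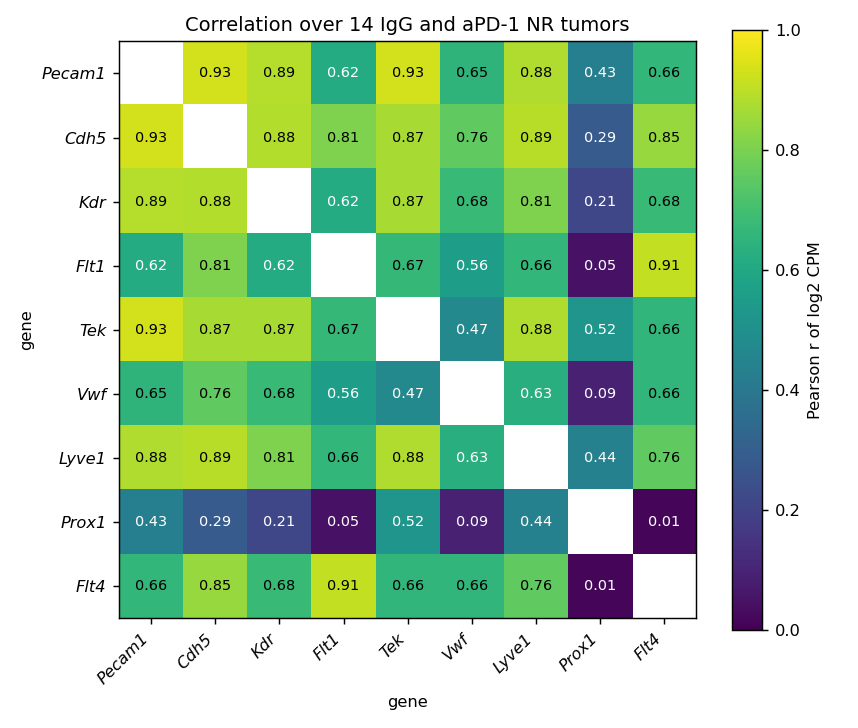
Pearson r of log2 CPM (color, 0 to 1) for each pair of vessel genes (both axes) over the 14 IgG and aPD-1 NR tumors. Pecam1, Cdh5, Kdr, Tek and Lyve1 form a block with r from 0.805 to 0.931, Flt1 and Flt4 reach 0.91 with each other, and the Prox1 row is the lowest, from 0.01 to 0.52.

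Some tumors were high or low for most of the genes. IgG tumor 2 was among the 4 highest of the 14 for all 9 genes and the highest for 6, and NR tumor 14 was the lowest for 8 of 9. IgG tumor 1 was among the 3 lowest for 7 genes and IgG tumor 4 for 6. Of these, tumors 1 and 14 had a high mitochondrial share of counts, and tumors 1, 9 and 14 gave the 3 lowest Pecam1 levels of the 14. Without these 3 tumors 23 pairs passed. Leaving out tumor 2 alone brought the count from 26 to 15 and leaving out tumor 14 brought it to 18, while the median r over the 36 pairs went from 0.66 to 0.59 and 0.63. Tumor 15 was the highest of all 16 for 8 of the 9 genes, the exception being Flt1.

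The genes most like each member, by Pearson r of log2 CPM over the same 14 tumors among 13943 genes of at least 1 CPM on average, are given as a description. For Cdh5 they were Esam (r = 0.97), an endothelial junction adhesion molecule, Prrg3 (0.96) and Mmrn2 (0.96), an endothelial matrix protein. Kdr was closest to Cd93 (0.96), Ptprb (0.96), the endothelial phosphatase that acts on Tek, and the basement membrane collagen Col15a1 (0.95). Pecam1 was closest to Svep1 (0.97), Srpx (0.97) and Enpep (0.96). Flt1 stood nearest to Inhbb (0.96), Nos3 (0.95), the endothelial nitric oxide synthase, and Kcnq1 (0.92), and Flt4 nearest to Sema3f (0.95), Flt1 (0.91) and Myo1d (0.91). Tek was closest to Serpine2 (0.97), Zfp366 (0.97) and Meox2 (0.96), and Lyve1 to Dpep1 (0.98), Cbr2 (0.97) and Scn7a (0.97). Lower values were found for Vwf, with Timp2 (0.92), Tcn2 (0.89) and C1qtnf1 (0.88), and for Prox1, with Bend6 (0.83), St8sia1 (0.81) and ENSMUSG00000092486 (0.79).

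Between responders and non-responders no ligand of these receptors passed the test. Of 11 VEGF, angiopoietin and related ligands, 0 passed in either direction, and the median log2 fold change was -0.08. Vegfa, the main growth factor of blood vessels, averaged 231.4 ± 32.7 CPM (SD, n = 2) in the responders and 330.8 ± 73.0 CPM (SD, n = 6) in the non-responders, a log2 fold change of -0.52 ± 0.26 (SE, edgeR adjusted p = 0.197). Vegfc, the main ligand of Flt4, averaged 6.46 ± 0.146 and 13.9 ± 4.26 CPM, a log2 fold change of -1.10 ± 0.47 (adjusted p = 0.117). For both genes the 2 responders lay below all 6 non-responders, which held for 13.2% of all genes tested. Vegfd, also a ligand of Flt4, was at 13.5 and 14.2 CPM (log2 fold change -0.08, adjusted p = 0.852), Vegfb at 17.0 and 24.2 CPM (-0.52, adjusted p = 0.265) and Pgf, a ligand of Flt1, at 4.07 and 4.42 CPM (-0.12, adjusted p = 0.907).

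Among the ligands of Tek, Angpt1, its activator, was at 22.2 CPM in the responders and 17.9 CPM in the non-responders (log2 fold change 0.31, adjusted p = 0.653). Angpt2, its context-dependent antagonist, was at 24.5 and 18.5 CPM (0.41, adjusted p = 0.673). Angpt4 was at 4.09 and 2.04 CPM (1.00, adjusted p = 0.0825), and it was the 1 ligand that passed over the IgG tumors (log2 fold change 1.27, adjusted p = 0.0170). Apln, the ligand of Aplnr, was at 19.5 and 29.2 CPM (-0.58, adjusted p = 0.295), Adm, the vasodilator that signals through Calcrl, at 11.1 and 8.21 CPM (0.44, adjusted p = 0.464) and Ccbe1, which helps process Vegfc, at 1.115 and 0.749 CPM (0.57, adjusted p = 0.708). Hypoxia genes, which often move with Vegfa, gave 0 of 7 past the threshold in this comparison and a median log2 fold change of -0.40. The most abundant of them, Bnip3 and Ndrg1, were at -0.42 (adjusted p = 0.259) and -0.40 (adjusted p = 0.332).

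Of 10 co-receptors and modulators of these receptors, 3 rose in the responders over the non-responders and 0 fell, with a median log2 fold change of 0.94. For this and the following lists, 15.4% of all genes tested passed as higher and 4.34% as lower in this comparison. S1pr1, the sphingosine-1-phosphate receptor that lymphocytes also use to leave lymphoid tissue, rose by 2.03 ± 0.34 (SE, edgeR adjusted p = 3.90e-04), Ptprb by 1.94 ± 0.53 (adjusted p = 0.0153) and Calcrl, a receptor of adrenomedullin, by 1.58 ± 0.26 (adjusted p = 3.65e-04). Of 15 other blood endothelial genes 2 rose, close to the share over all genes tested, and 0 fell. These were Icam2, by 1.505 ± 0.42 (adjusted p = 0.0170), and Egfl7, by 0.84 ± 0.28 (adjusted p = 0.0442), and the median of the list was 0.86. Cd34, which marks endothelium and other cells, was far more abundant than the rest of that list and pointed the other way, at 486.4 CPM in the responders and 748.0 CPM in the non-responders (log2 fold change -0.62, adjusted p = 0.108). It was singled out after its values were seen.

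Arterial, tip cell and Notch genes split. Of 11, 3 rose and 1 fell, with a median of 0.14: the connexins Gja5 (2.40 ± 0.75, adjusted p = 0.0317) and Gja4 (1.31 ± 0.36, adjusted p = 0.0155) and the receptor Notch1 (1.00 ± 0.21, adjusted p = 0.00247) rose, and the arterial ephrin Efnb2 fell by 1.02 (SE 0.21, adjusted p = 0.00247). Notch1 is also a gene of lymphocytes. Of 5 endothelial adhesion genes 2 rose, Icam1 by 1.71 ± 0.24 (adjusted p = 7.04e-05) and the venular chemokine receptor Ackr1 by 3.64 ± 0.97 (adjusted p = 0.0130). Immune cells also express Icam1. Of 10 pericyte and mural genes 3 rose and 0 fell, with a median of 1.18: the smooth muscle myosin Myh11 (3.37 ± 0.67, adjusted p = 0.00158), Notch3 (1.89 ± 0.57, adjusted p = 0.0253) and the pericyte channel subunit Abcc9 (1.53 ± 0.50, adjusted p = 0.0389).

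Other lymphatic endothelial genes were uneven. Of 7 in the table, 3 rose and 1 fell between responders and non-responders: Stab2, a scavenger receptor of sinus endothelium, by 6.71 ± 0.77 (adjusted p = 8.41e-06), Reln by 5.21 ± 0.88 (adjusted p = 4.21e-04) and Mmrn1 by 3.67 ± 1.02 (adjusted p = 0.0169), while Sema3a fell by 0.71 (SE 0.24, adjusted p = 0.0432). The median was 0.57. Pdpn, at 144.9 and 136.5 CPM (log2 fold change 0.09, adjusted p = 0.859), is also made by fibroblasts and was singled out after its values were seen. Ccl21a was not analysed here. The 4 genes of high endothelial venules, the vessels through which lymphocytes enter lymph nodes, all rose, among them Glycam1 by 8.32 ± 1.04 (adjusted p = 2.59e-05), Chst4 by 7.23 ± 1.07 (adjusted p = 1.15e-04) and Fut7 by 2.49 ± 0.40 (adjusted p = 2.21e-04). Their summed level was 191.9 CPM in tumor 15 and 34.6 CPM in tumor 16, against 0.164 to 1.38 CPM in the IgG and 0.425 to 1.22 CPM in the NR tumors, and 1 to 3 of the 4 were at 0 in 13 of those 14.

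**Figure D4:**
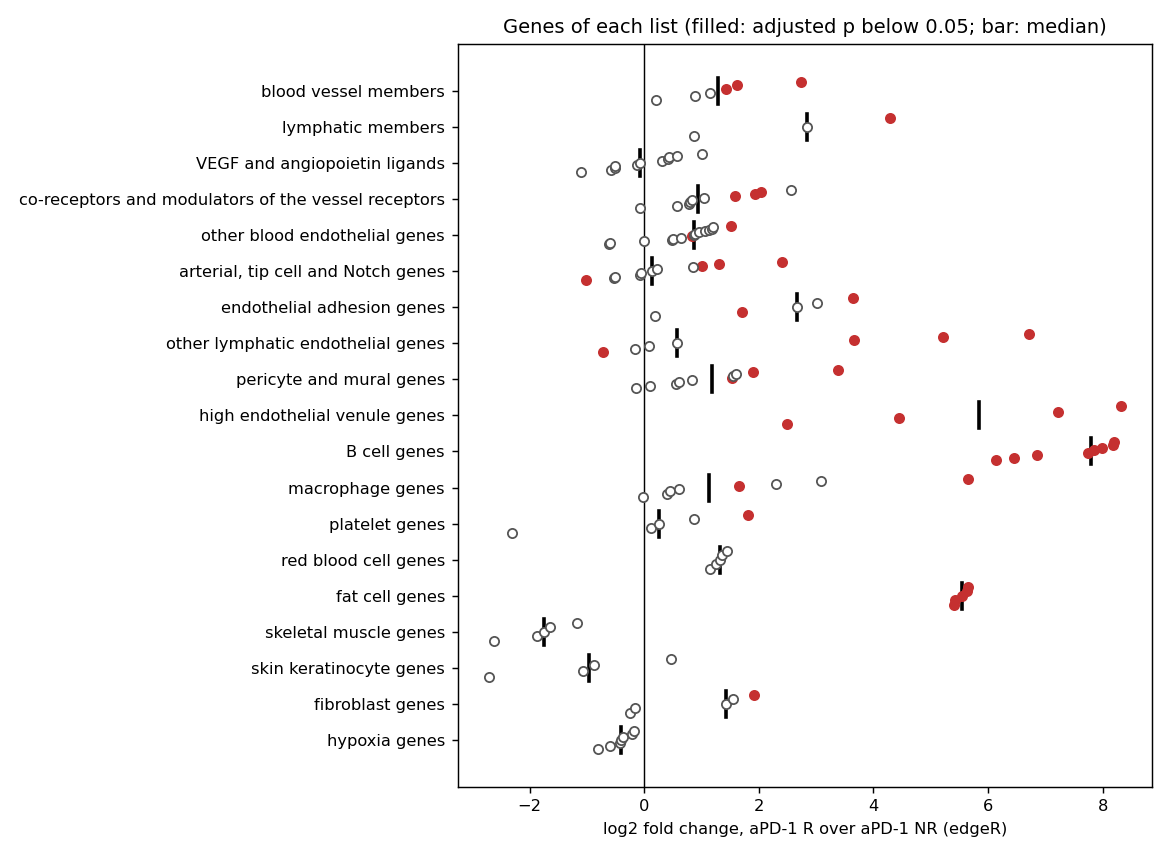
Log2 fold change between aPD-1 R and aPD-1 NR tumors (x axis, edgeR) for each tested gene of 19 lists (y axis), filled where the adjusted p was below 0.05, with the list median as a bar. The ligands center on -0.08, the blood vessel genes on 1.29 and the lymphatic genes on 2.85, while the lists of B cells (7.79), high endothelial venules (5.84) and fat cells (5.54) lie farther to the right. The lymphatic median is the value of Lyve1.

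All 8 B cell genes rose in the responders over the non-responders, Cd22 by 6.45, Cd79b by 6.14 and Pax5 by 6.86 on the log2 scale. All 5 fat cell genes rose as well, Lep by 5.54, Plin1 by 5.64 and Cidec by 5.42. Fat is a vascular tissue and lymph nodes are rich in lymphatic endothelium. Whether any sample held fat or lymph node tissue was not tested, and B cell genes can come from other places than a lymph node. Tumor 15 exceeded tumor 16 in each of 3 sums: 3.87-fold for the B cell sum, 5.80-fold for the fat cell sum and 5.54-fold for the high endothelial venule sum. It did so 1.80-fold for the summed blood vessel genes (372.8 and 206.8 CPM) and 2.84-fold for the summed lymphatic genes (78.7 and 27.7 CPM). Most of the lymphatic sum was Lyve1, which differed 3.22-fold, while Prox1 differed 1.59-fold and Flt4 1.58-fold. In tumor 16 the blood vessel sum was close to that of IgG tumor 2 (201.8 CPM), whose B cell sum was 3.06 CPM and fat cell sum 57.8 CPM. The sum of the lymphatic genes in IgG tumor 2 was 22.3 CPM, of which Lyve1 gave 17.1 CPM, against 21.3 CPM of Lyve1 in tumor 16, while Prox1 was at 0.273 CPM in tumor 2 and 2.93 CPM in tumor 16. Both responders carried these genes, so vessel levels, the content of these tissues and response cannot be told apart with 2 responders. Red blood cell genes, a measure of blood in the sample, gave 0 of 5 past the threshold, with a median of 1.32 and sums of 246.8 and 143.8 CPM in the responders against 21.7 to 139.3 CPM in the non-responders and 24.6 to 193.7 CPM in the IgG tumors. Hbb-bs was at 1.32 (adjusted p = 0.235) and Hba-a2 at 1.44 (adjusted p = 0.158). Skeletal muscle and keratinocyte genes gave 0 of 5 and 0 of 4, with Myh4 at -1.17 (adjusted p = 0.823) and Krt14 at -1.06 (adjusted p = 0.700), and 1 of 5 fibroblast genes rose (Lum, by 1.91, adjusted p = 0.0117).

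**Figure D5:**
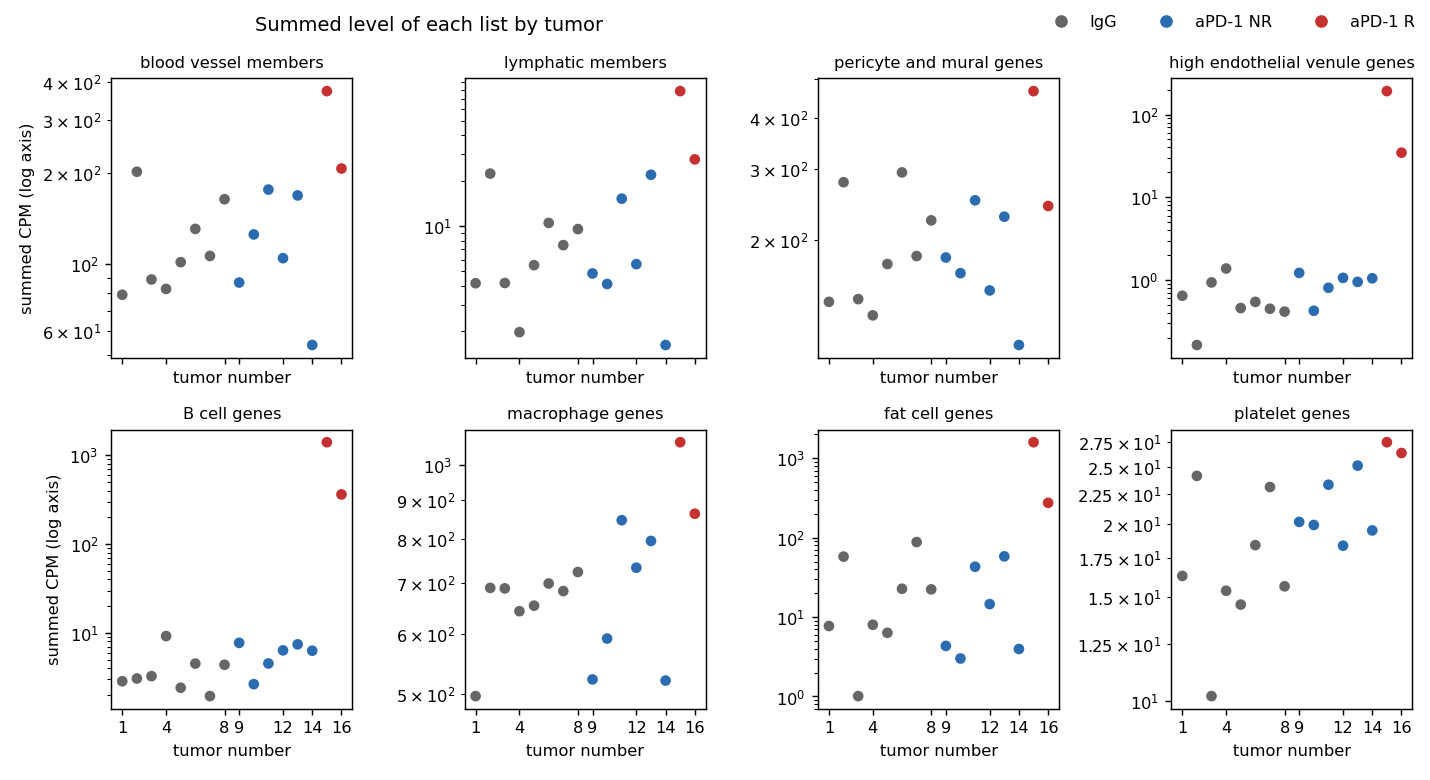
Summed CPM (y axis, log scale) of 8 gene lists in each tumor (x axis, tumor number; 1 to 8 IgG, 9 to 14 aPD-1 NR, 15 and 16 aPD-1 R). The B cell, fat cell and high endothelial venule sums of tumors 15 and 16 lie above those of every other tumor, and the blood vessel sum of tumor 16 (206.8 CPM) is near that of IgG tumor 2 (201.8 CPM).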

How the data were processed

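Bulk RNA-seq of 16 MC38 tumors was analysed. The authors aligned reads with STAR 2.6 to GRCm38 and deposited expected counts per gene from RSEM 1.3.0, with no normalization. Expected counts were rounded, 92 spike-in rows (at most 185 counts in a tumor) were left out, and totals lay between 26603449 and 39948866. Each pair of tumors differed by far more than sampling noise. Coordinates and exon lengths came from GENCODE M21 and promoters from RefSeq. One fit of the 3 groups in edgeR 4.0.16 (R 4.3.3) used TMM scaling, its filter on low counts and the robust quasi-likelihood test, over 18251 genes, and was tested on simulated data. There, with 200 genes changed, it recovered 35% of 2-fold and 68% of 4-fold changes for responders against non-responders, with 4.63% of calls false. For responders against IgG these were 37%, 75% and 7.44%, and for NR against IgG 64%, 78% and 3.40%. Between the real responders and non-responders 3599 genes passed, far more than were changed in the simulation, so the rates may differ in these data. A gene of such a difference that did not pass may thus have been missed. All aPD-1 against IgG was a separate fit of 2 treatments. DESeq2 1.42.0, median-of-ratios factors, other filters, a mitochondrial covariate, fewer groups and leaving out tumors were alternatives. Correlations used log2 CPM with a prior count of 2. Members and lists were chosen with earlier results of these data known. Named were all members, all ligands, at most 3 passing genes per list (smallest p), the 2 most abundant where none passed and the 3 most correlated genes per member. Spatial data were not used here.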

Additional observations from a re-analysis of the deposited data

How the results depend on the processing

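With 2 responders, counts of vessel genes past the threshold moved with single tumors, as did counts over all genes. Between responders and non-responders the count was 4, and 3 to 6 under the other tools, filters, scalings and sample sets that kept both responders and all groups compared. Without each tumor in turn it lay between 0 (without responder 15) and 6 (without NR tumor 13). Between responders and IgG tumors the count was 5, moved to 3 with no filter on low counts (Tek and Lyve1 lost), and lay between 1 (without responder 15) and 7 (without IgG tumor 2) in the fits without each tumor. A lone remaining responder was taken to vary like the tumors of the other groups. NR against IgG and all aPD-1 against IgG gave 0 vessel genes in every fit. The 26 correlated pairs ranged from 15 to 28 without each tumor. With the mitochondrial share as a covariate 6 vessel genes passed over the non-responders, Vwf and Lyve1 being gained. Without tumors 1, 9 and 14, an alternative added after the data were seen, 3 passed. Kdr was lost there at a log2 fold change of 1.115 and an adjusted p of 0.0504, against 1.42 with all tumors. Over all genes, 30.9% and 32.6% passed in these fits, against 19.7%. With no filter on low counts Kdr was also lost (log2 fold change 1.35, adjusted p 0.0713), and at 10 counts in 8 tumors Prox1 was not in the fit.

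Signs turned mostly for values near 0. For NR over IgG, Flt1 was -0.003 under DESeq2 and under median-of-ratios factors, and Flt4 was 0.001 with no filter, 0.006 with the mitochondrial covariate and 0.198 without tumors 1, 9 and 14. Without each tumor in turn, the NR over IgG estimates ran from -0.127 to 0.204 for Pecam1, -0.098 to 0.279 for Cdh5, -0.083 to 0.137 for Flt1, -0.131 to 0.326 for Vwf, -0.484 to 0.644 for Lyve1 and -0.253 to 0.214 for Flt4. Flt1 ran from -0.077 to 0.345 for responders over NR and from -0.076 to 0.347 over IgG, and for all aPD-1 over IgG from -0.010 to 0.193. In that last comparison Kdr ran from -0.197 to 0.322 and Tek from -0.183 to 1.137. The cause was not tested. No paired analysis was possible because the tumor numbers 1 to 16 run across the groups and no number is shared.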

Other observations

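The vascular lists were also compared between the same 2 responders and the 8 IgG tumors. Over all genes tested, 17.7% passed as higher and 5.17% as lower there. Of 10 co-receptors and modulators 5 rose, including Eng (log2 fold change 1.10, edgeR adjusted p = 0.0131) and Acvrl1 (0.86, adjusted p = 0.0126), the endothelial co-receptor and receptor of BMP9. Of 5 endothelial adhesion genes 4 rose, with Sele (2.95, adjusted p = 0.0288) and Selp (3.13, adjusted p = 0.0290), the selectins on which leukocytes roll, joining Icam1 and Ackr1. Of 15 other blood endothelial genes 3 rose, close to the share over all genes tested. Among them was Plvap (1.51, adjusted p = 0.0170), a protein of endothelial diaphragms, and Cd34 fell (by 0.75, adjusted p = 0.0411). Of 10 pericyte and mural genes 3 rose and 0 fell, and 8 of the 10 had a log2 fold change above 0. One that rose was Acta2, of smooth muscle and myofibroblasts, by 1.95 (adjusted p = 0.0383). These genes were picked after their values were seen, and whether they differed more from IgG than from non-responder tumors was not tested.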
